A study of Rattus norvegicus with 25 samples.

Results

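The cytosolic ribosomal protein genes were taken as all symbols that start with Rpl or Rps followed by a digit, with Rplp0, Rplp1, Rplp2 and Rpsa. Symbols of the Rps6k kinases and symbols marked -ps were dropped, and where a symbol occurred more than once its entry with most counts was used. This gave 84 genes of 16881 symbols, 50 with large subunit symbols and 34 with small subunit symbols. All 84 passed the filter on low counts, which left 11492 genes. Of the 84, 77 were standard ribosomal proteins. The other 7 were the paralogues Rpl3l, Rpl22l1, Rpl36al, Rpl39l, Rps27l and Rps4y2, and Rps19bp1, whose product binds Rps19 and is not itself a ribosomal protein.

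The libraries came from tooth with periodontal ligament of Sprague-Dawley rats. In 4 groups of 6 libraries the maxillary first molar had been extracted, kept dry and replanted. In immediate replantation (IR) the tooth was dry for 5 min and in delayed replantation (DR) for 60 min, and tissue was taken after 3 days (IR3, DR3) or 7 days (IR7, DR7). A single library labelled NT, with control as both its treatment and its time, served as the comparison without replantation, and a postnatal age of day 21 is given for all libraries. The labels name no genotype other than the strain, and they do not say whether the libraries of a group came from separate animals, so p-values measure only the spread between libraries, which may be technical.

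The cytosolic ribosome joins a small subunit, which reads the messenger RNA, to a large subunit, which forms the peptide bond. Each subunit is built on ribosomal RNA with a fixed set of proteins, so cells make these proteins in matched amounts. Their transcripts are among the most abundant in most cells and share a 5′ terminal oligopyrimidine tract, a run of C and U at the very start that couples their translation to growth signalling through mTOR.

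The replanted libraries held 5.04 to 8.81 M counts each, and NT held 8.55 M. Entries for ribosomal RNA took 9.81% to 34.1% of the counts in replanted libraries and 2.93% in NT. Of the 7 tooth and ligament markers, 6 were in the files and together held 0.0662% to 4.9% of the counts in the 12 day 3 libraries, 4.37% to 10.3% in the 12 day 7 libraries and 15.5% in NT. Most of these counts came from Col1a1 (5916140 over the 25 libraries) and Sparc (1805345), against 109723 for Postn, 72846 for Dmp1 and 4517 for Aspn. The summed share therefore mainly follows Col1a1 and Sparc. Dspp, the odontoblast marker among the 6, was at 0 in 9 libraries and had 9035 of its 9528 counts in NT. Earlier results of these data had named 6 day 3 libraries for gland genes, IR3 replicates 3, 4 and 6 and DR3 replicates 1, 2 and 3. In these 6 the tooth and ligament markers held at most 1.21%, against at least 2.5% in the other day 3 libraries. Nasal gland and airway markers reached 20.2% and 23.5% in IR3 replicates 3 and 4, and markers of lipid-secreting glands held 1.61% to 2.66% in the remaining 4 of the 6, although Awat1 was at 0 in 21 and Awat2 in 23 of the 25 libraries. The main results that rest on day 3 are therefore given with and without these 6 libraries. In the libraries kept, nasal gland and airway markers still held 0.0653% to 4.89% at day 3 and 0.0348% to 7.82% at day 7. Markers of lipid-secreting glands held up to 0.548% and 0.446% there. Leaving out the 6 therefore does not remove all gland content.

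RefSeq start sites on the rat build GRCr8 could be matched by symbol for 67 of the 84 genes. The windows below run from 15 bases before to 15 bases from the start site, on the coding strand, with the longest run of C and T in capitals, wherever it lies in the window. They are printed because a terminal oligopyrimidine transcript has such a run at its start. They are shown for 5 of the 6 genes that rose most from day 3 to day 7 (Rps16, Rps19, Rpl39, Rps18 and Rps15a), for Rpl10 and Rps28, whose levels differed least between the days among the matched genes, and for the muscle paralogue Rpl3l.
Rps18, chr20:4933730-4933759, plus strand: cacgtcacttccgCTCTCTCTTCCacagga
Rps15a, chr1:181860270-181860299, minus strand: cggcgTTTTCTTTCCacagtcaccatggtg
Rpl39, chrX:121195882-121195911, minus strand: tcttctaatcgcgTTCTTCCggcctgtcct
Rps16, chr1:92770643-92770672, plus strand: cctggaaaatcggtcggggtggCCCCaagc
Rps19, chr1:89608673-89608702, plus strand: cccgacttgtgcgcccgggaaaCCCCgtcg
Rpl10, chrX:157205835-157205864, plus strand: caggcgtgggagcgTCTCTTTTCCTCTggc
Rps28, chr7:15311319-15311348, minus strand: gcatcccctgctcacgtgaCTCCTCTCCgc
Rpl3l, chr10:14258431-14258460, plus strand: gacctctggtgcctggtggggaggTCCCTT

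A run of at least 6 bases, each C or T, read on the coding strand only, lay in this window in 52 of the 67 genes (77.6%), against 27.6% of 18999 protein-coding promoters. The shares were 77.5% of 40 large subunit genes and 77.8% of 27 small subunit genes. Among the genes called higher at day 7 below, 21 of 26 had such a run (80.8%), and among those not called 31 of 41 (75.6%). The run was 11 bases in Rps18, which rose, and 13 bases in Rpl10, which differed by 0.00 ± 0.101 (SE). In Rps18, Rpl39 and Rpl10 the run spanned the annotated start, in Rps15a it lay before it, and in Rps28 and Rpl3l after it. In Rps16 and Rps19 the longest run in the window was 4 bases and also lay after the start. This says only that no longer run is in that window of the annotated start.

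Ribosomal protein transcripts were more abundant at day 7 than at day 3. The 84 genes together took 3.22% to 7.38% of the counts at day 3 (median 5.08%), 5.5% to 8.09% at day 7 (median 6.84%) and 5.37% in NT. The 2 days overlapped, but the lowest day 7 library lay above the day 3 median. IR3 replicates 4 and 3, the libraries with the most nasal gland markers, had the lowest shares of all, 3.22% and 3.64%. Without the 6 libraries rich in gland genes, the day 3 range was 4.53% to 7.38% (median 5.73%), and the lowest day 7 library (5.5%) lay below that median. All these totals include ribosomal RNA, of which NT held less. As a share of the other counts, the 84 genes took 3.61% to 8.89% in the 12 day 3 libraries (median 6.47%). They took 7.43% to 9.99% at day 7 (median 8.87%) and 5.53% in NT, which then lay below the day 3 median rather than above it. The labels describe bulk tissue, in which fewer cells of a type and less RNA per cell cannot be told apart.

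**Figure D1:**
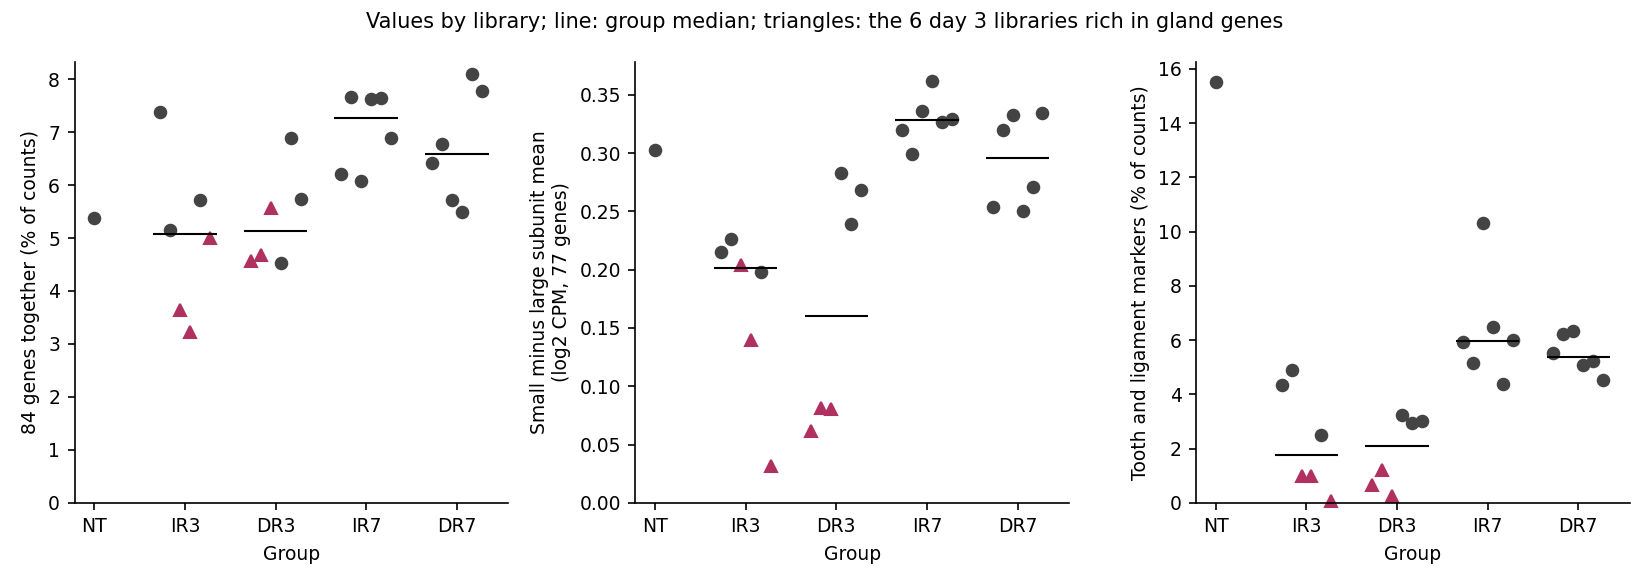
Each point is a library and each line a group median, for the share of counts in the 84 genes (left, percent), the mean level of 31 small minus 46 large subunit genes (centre, log2 CPM) and the share of counts in tooth and ligament markers (right, percent). Day 7 medians lie above the day 3 medians in all 3 panels. The triangles, day 3 libraries rich in gland genes, lie below all other day 3 libraries only in the right panel. In the left panel DR3 replicate 3, a triangle, is at 5.57%, above the lowest day 7 library (5.5%). In the centre panel IR3 replicate 3, a triangle, is at 0.204, above IR3 replicate 5 (0.198). Counts in the right panel come mainly from Col1a1 and Sparc.

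Gene by gene, 32 of the 84 rose from day 3 to day 7 when IR and DR were averaged, and none fell (edgeR quasi-likelihood test, Benjamini-Hochberg adjusted p under 0.05 over all 11492 genes). The background was 6.94% of genes called higher and 11.8% called lower. Among the 1064 genes with an average of at least 7 log2 CPM (CPM being counts scaled to a common library size), a level that 78 of the 84 reach, 9.21% were called higher, against 39.7% of those 78. The fold change was above 0 in 76 of the 84, with a median of 0.26 on the log2 scale against -0.06 over all genes tested. An unadjusted p under 0.05 was found for 53 of the 84, with a background of 35.6%. Called genes rose by 0.32 to 0.66. Every day 7 library lay above the day 3 median of the gene in 31 of the 84, and 23 of these were among the 32 called. The calls come from the same libraries, so this gives them no separate support, and its share over all genes was not computed. In none of the 84 did all 12 day 7 libraries lie above all 12 day 3 libraries, which held for 9 genes in all (0.0783%).

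The calls were lost when the 6 day 3 libraries rich in gland genes were left out, which also takes away 6 of the 12 day 3 libraries, and the 2 were not separated. Without them 11836 genes were tested in edgeR, and 51 passed, none of them among the 84. An unadjusted p under 0.05 was then found for 35 of the 84 and for 1541 of the 11836. The fold change was then still above 0 in 75 of the 84, with a median of 0.22 against 0.00 over all genes. With the replicate number as a block the count was 15, and 1197 genes were called in all. With every library kept except 1, the count of the 84 ran from 18 to 41. The count over all genes then ran from 1371 (without DR3 replicate 3) to 2916 (without IR3 replicate 2). The count of the 84 fell to 18 without IR7 replicate 2, 18 without IR7 replicate 5, 19 without DR7 replicate 5 and 21 without DR7 replicate 1. The part of tooth and gland content in the difference was not tested.

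Small subunit genes made up most of the calls. Of the 34 small subunit symbols 21 rose (61.8%), and of the 50 large subunit symbols 11 rose (22%), 1 of them the paralogue Rpl22l1. The median change was 0.39 over the 31 standard small subunit genes and 0.24 over the 46 standard large subunit genes, in log2 units. Both medians were above the -0.06 of all genes. Without the 6 libraries rich in gland genes no gene of either subunit was called, the medians were 0.26 and 0.19, and in DR alone both were 0.15.

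**Figure D2:**
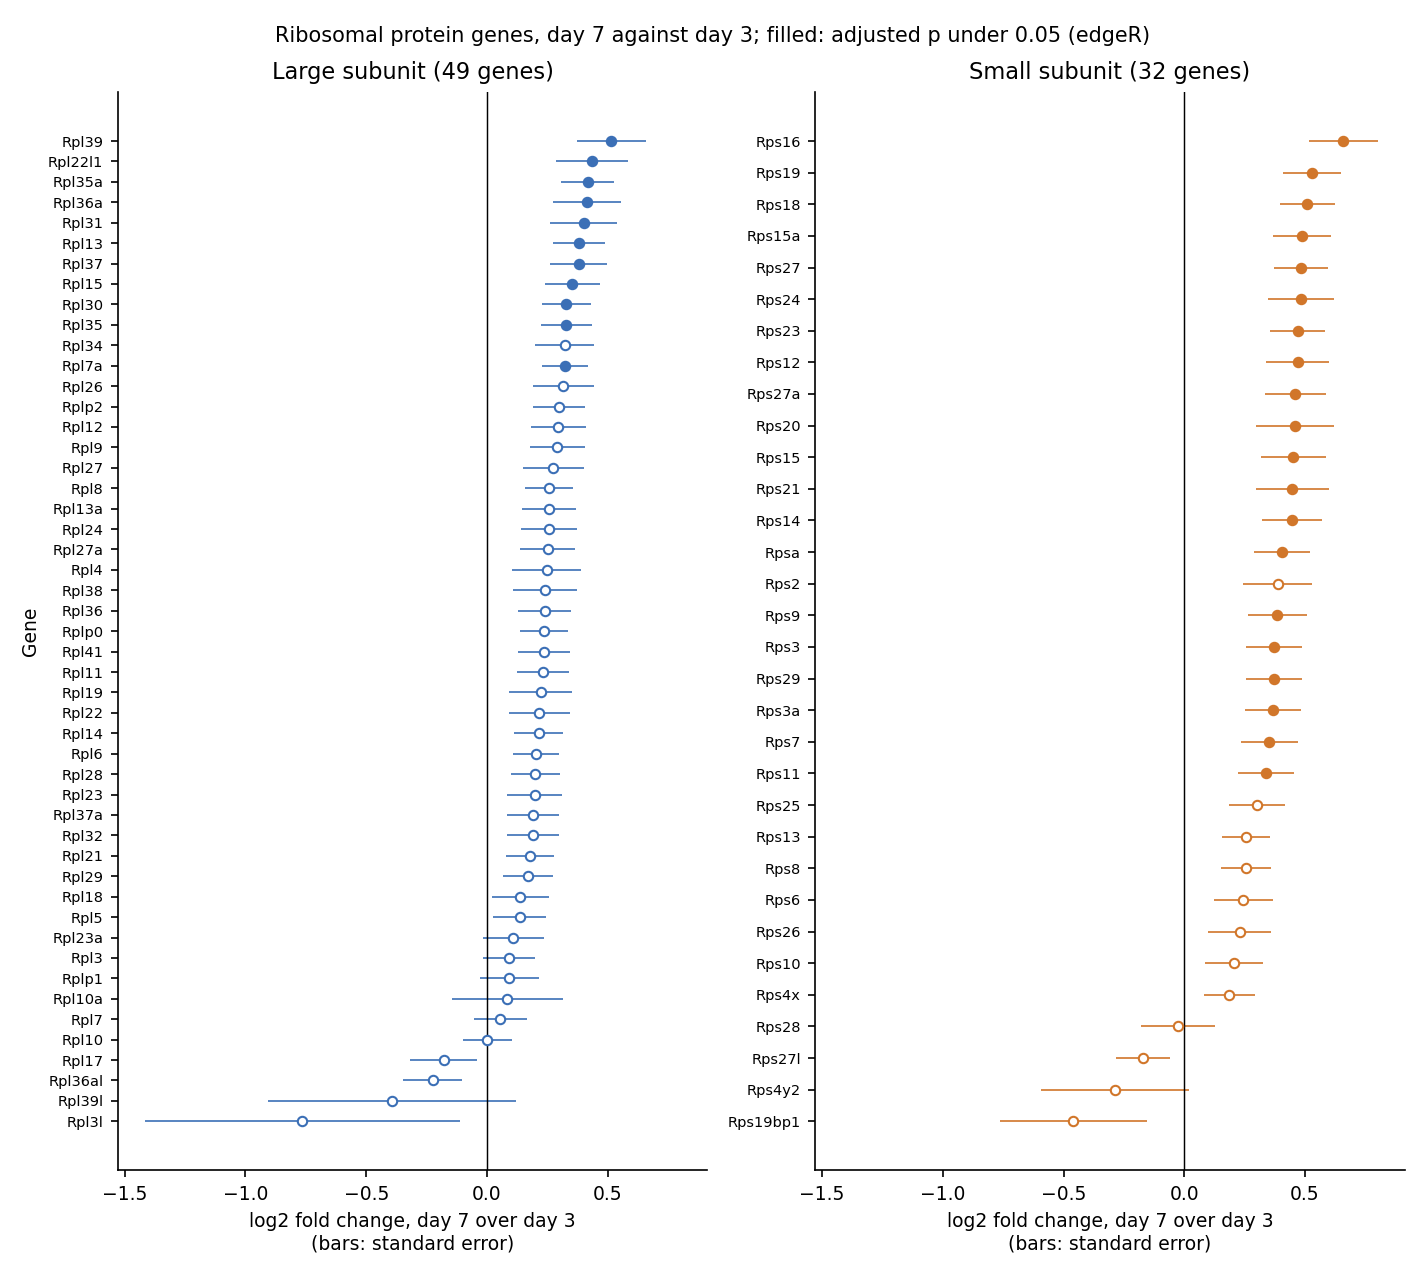
Log2 fold change of day 7 over day 3 (x axis, IR and DR averaged, bars are standard errors) for 49 large and 32 small subunit symbols. Filled points passed the adjusted threshold, 11 on the left and 20 on the right, and all of them lie above 0.

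Rps16, whose tail contacts the transfer RNA in the decoding site, had the largest change. Its level was 955 to 1570 CPM in IR3 (median 1220), 649 to 1680 in DR3 (median 1240), 1620 to 2370 in IR7 (median 1930), 1390 to 2360 in DR7 (median 1950) and 1490 in NT. All IR7 libraries lay above all IR3 libraries, while DR7 and DR3 overlapped, and the lowest values were those of DR3 replicates 1 and 2. The log2 fold change of day 7 over day 3 was 0.66 ± 0.143 (SE, edgeR adjusted p = 0.00815), and 0.49 without the 6 libraries rich in gland genes (adjusted p = 0.113).

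Rps18, a protein of the head of the small subunit, ran from 516 to 780 CPM in IR3 (median 585) and from 792 to 1040 in IR7 (median 903). In DR3 it was 423 to 743 (median 647), in DR7 687 to 967 (median 822), and in NT 532. IR3 and IR7 did not overlap, DR3 and DR7 did, and NT lay near the low end of IR3. The change was 0.51 ± 0.114 (SE, edgeR adjusted p = 0.00891), and 0.37 without the 6 libraries (adjusted p = 0.132).

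Rps19 is needed to mature the small subunit RNA and is the gene most often mutated in Diamond-Blackfan anaemia. Its level was 119 to 165 CPM in IR3 (median 131), 84.8 to 181 in DR3 (median 136), 166 to 256 in IR7 (median 194), 160 to 200 in DR7 (median 189) and 127 in NT. Again IR7 lay wholly above IR3, while DR3 and DR7 overlapped. The change was 0.53 ± 0.122 (SE, edgeR adjusted p = 0.00937), and 0.35 without the 6 libraries (adjusted p = 0.153). The gene has 2 entries in the files, and the one used held 51.4% of their counts.

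Rps15a, also mutated in that anaemia, had medians of 216 CPM in IR3, 218 in DR3, 341 in IR7 and 293 in DR7, and a level of 278 in NT. Its change was 0.49 ± 0.121 (SE, edgeR adjusted p = 0.0118). It lost the call without the 6 libraries, at 0.31 (adjusted p = 0.265).

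Among the other small subunit genes that rose, Rps27, a zinc finger protein, had medians of 918 and 829 CPM in IR3 and DR3 and of 1200 and 1130 in IR7 and DR7, with 831 in NT (change 0.48, and 0.45 without the 6 libraries). Rps27a, which is made as a fusion with ubiquitin, rose by 0.46, and Rps3, at the entry of the messenger RNA channel, by 0.37. Rpsa, also known as the laminin receptor precursor, rose by 0.40 (edgeR adjusted p = 0.0199). Without the 6 libraries none of these was called, and Rps27a, Rps3 and Rpsa changed by 0.27, 0.22 and 0.24. Other small subunit genes did not pass. Rps28 differed by -0.03 (adjusted p = 0.919), and Rps6, the phosphorylation target of the S6 kinases, by 0.25 (adjusted p = 0.155).

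In the large subunit Rpl39, a very small protein in the wall of the peptide exit tunnel, had the largest change. It ran from 287 to 632 CPM in IR3 (median 332), 233 to 512 in DR3 (median 369), 475 to 665 in IR7 (median 554) and 414 to 596 in DR7 (median 532), with 422 in NT. The groups of the 2 days overlapped, and in IR3 this came from replicate 1 alone, the other IR3 libraries lying at or below 344. The change was 0.52 ± 0.144 (SE, edgeR adjusted p = 0.0187), and 0.27 without the 6 libraries (adjusted p = 0.408). Rpl39 has 3 near-equal entries, of which the one used held 34.1% of the counts, so its level is uncertain.

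The genes of the ribosomal stalk, the flexible arm that recruits elongation factors, did not pass. Rplp0 changed by 0.24 (edgeR adjusted p = 0.0932), Rplp1 by 0.09 (adjusted p = 0.613) and Rplp2 by 0.30 (adjusted p = 0.0539). Rpl5 and Rpl11, which form a particle with 5S RNA that can bind Mdm2, had changes of 0.14 and 0.23 (adjusted p = 0.388 and 0.126). Rpl10, which joins the large subunit late in assembly, had group medians of 465, 405, 435 and 416 CPM in IR3, DR3, IR7 and DR7, and its change was 0.00 ± 0.101 (SE, adjusted p = 0.991). Rpl17, at the tunnel exit, had the only change below 0 among the 46 standard large subunit genes, -0.18 (adjusted p = 0.368), and 0 of 12 day 7 libraries lay above its day 3 median.

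**Figure D3:**
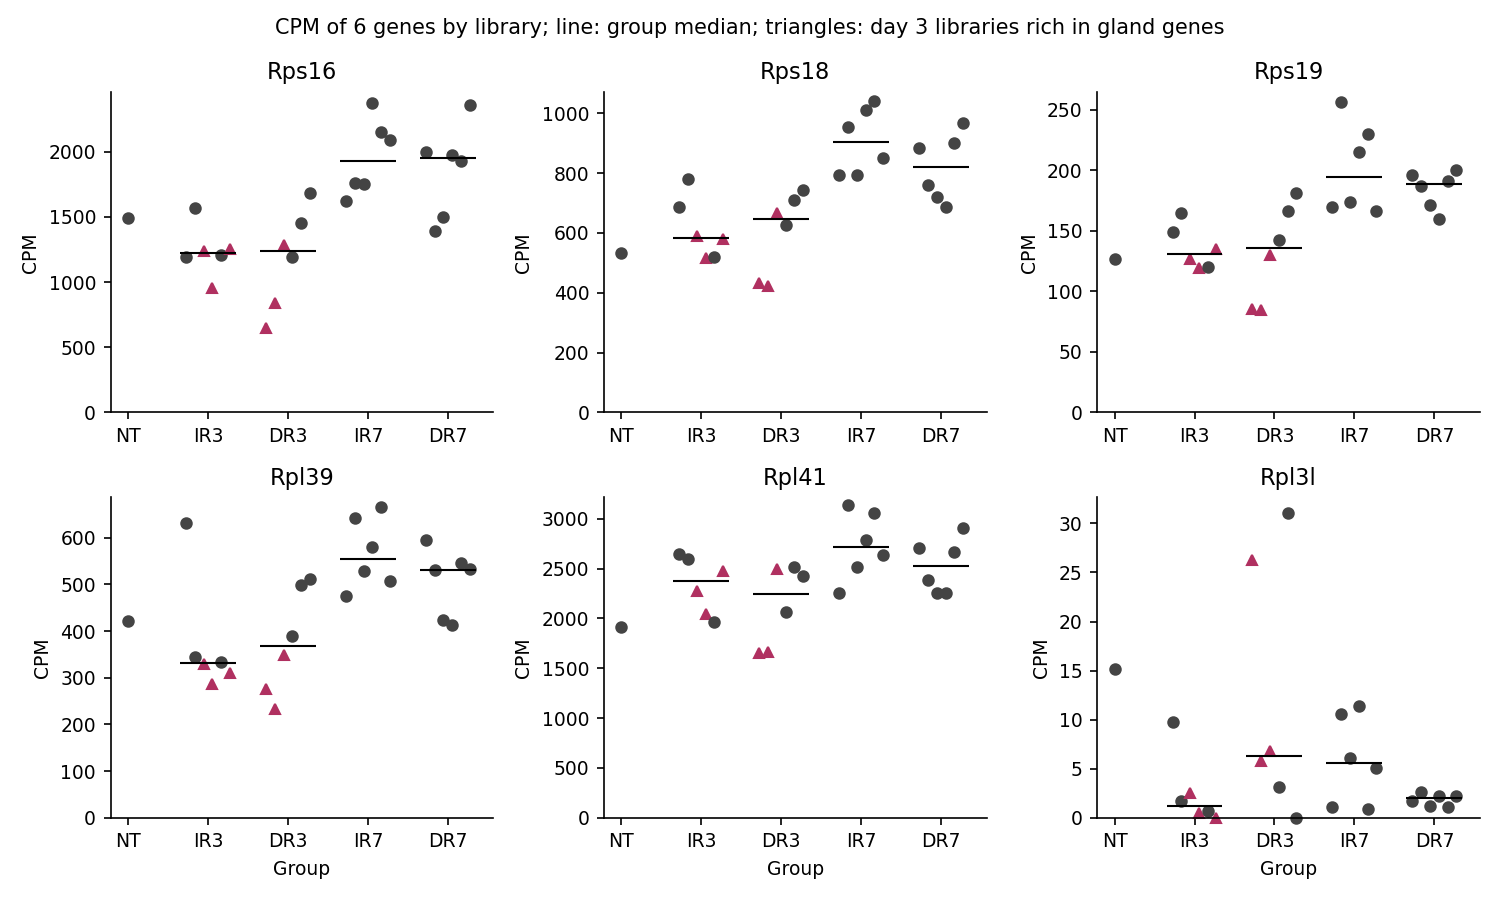
CPM (y axis, from 0) of Rps16, Rps18, Rps19, Rpl39, Rpl41 and Rpl3l in each library, with group medians as lines and the 6 day 3 libraries rich in gland genes as triangles. The day 7 libraries of the first 4 genes lie above the day 3 medians, Rpl41 runs from 1650 to 3140 with all groups overlapping, and Rpl3l is high in 2 DR3 libraries.

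Of the 6 paralogues Rpl22l1 alone rose (0.44, edgeR adjusted p = 0.0436), with medians of 156 and 163 CPM at day 3 and 235 and 221 at day 7 in IR and DR, while Rpl22, present at about 1080 CPM, changed by 0.22 (adjusted p = 0.221). Rpl36a rose (0.41, adjusted p = 0.0432), whereas its paralogue Rpl36al changed by -0.22 (adjusted p = 0.191). Rps27 rose, and Rps27l, a known target of p53, changed by -0.17 (adjusted p = 0.285). The difference within each pair was not tested, and reads of near-identical copies may have been split between them. Without the 6 libraries rich in gland genes Rpl22l1 and Rpl36a were not called (both 0.23, adjusted p = 0.567 and 0.581).

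Rpl3l, which takes the place of Rpl3 in striated muscle, was low and uneven. It was 0 to 9.76 CPM in IR3 (median 1.2), 0 to 31.1 in DR3 (median 6.3), 0.886 to 11.4 in IR7 (median 5.6), 1.09 to 2.68 in DR7 (median 1.99) and 15.2 in NT. The highest levels were in DR3 replicate 5 (31.1 CPM) and DR3 replicate 1 (26.3 CPM). The same 2 libraries had the highest shares of the 10 skeletal muscle markers, 1.02% and 0.743% of counts, against at most 0.346% in any other library. NT, with the next highest Rpl3l level (15.2 CPM), had only 0.096%. Rpl3 itself had group medians of 562 to 701 CPM. The Rpl3l difference between the drying effects at the 2 days was -3.87 ± 1.34 (SE, unadjusted p = 0.00823, edgeR adjusted p = 1), and the part of muscle content in it was not tested.

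Rpl39l, a paralogue of Rpl39 best known from male germ cells, was between 3.42 and 103 CPM. Its highest value lay in IR3 replicate 5 (103 CPM), followed by IR7 replicate 6 (61.5 CPM) and DR7 replicate 6 (43.5 CPM). Nasal gland and airway markers held 4.6%, 7.82% and 5.86% of counts in those libraries, the last 2 being the highest shares of their groups, but 20.2% in IR3 replicate 3, where Rpl39l was 20.3 CPM. Rps4y2 and Rps19bp1 had means of 3.56 and 3.02 CPM and changes of -0.29 and -0.46 that did not pass (edgeR adjusted p = 0.523 and 0.285).

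When tested separately, IR and DR each showed changes of similar size, but no gene of the 84 passed in either. In IR the median of the 84 was 0.31 against -0.09 over all genes, and 34 had an unadjusted p under 0.05 (background 0.139% of genes called by edgeR, 0.104% higher and 0.0348% lower, and 20.4% at the unadjusted threshold). In DR the median was 0.26 against 0.00, and 27 had an unadjusted p under 0.05 (background 0.0087% and 22.5%). The smallest adjusted p was 0.111 in IR, for Rps18, and 0.0978 in DR, for Rps16. By DESeq2, 9 of the 84 passed in IR, all higher, where 748 genes passed in all. In DR 12 of the 84 passed by DESeq2, 11 higher and 1 lower, where 1064 genes passed in all. Without IR3 replicate 1 edgeR called 7 of the 84 in IR and 402 genes in all.

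These 2 time comparisons share no libraries. Of the 84 genes 74 were higher at day 7 in both (88.1%), as were 33.8% of all genes, and of the 77 standard genes 73 were. Across those 77 genes the 2 sets of changes had a Pearson r of 0.811, across all 84 one of 0.0296, with Rpl3l at 1.17 and -2.7, and across all genes tested one of 0.648. This is a description across genes, which are not independent replicates and share their library scaling. Without the 6 libraries rich in gland genes 71 of the 77 were higher in both, with medians of the 84 of 0.26 in IR and 0.15 in DR.

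**Figure D4:**
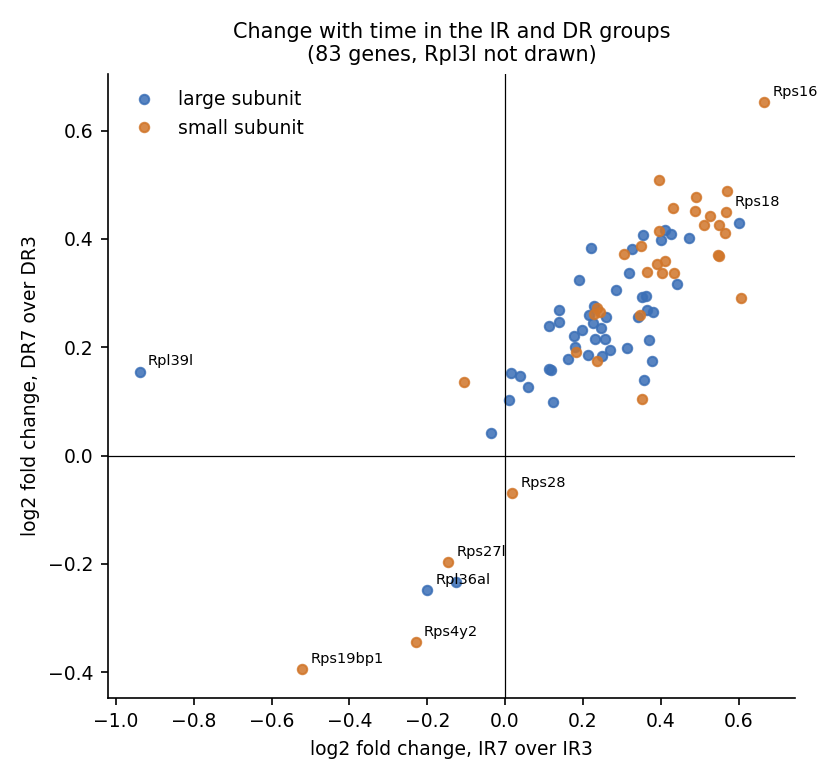
Log2 fold change of IR7 over IR3 (x axis) against DR7 over DR3 (y axis) for 83 of the 84 genes, Rpl3l being left out because its values were 1.17 and -2.7. Most points lie above 0 on both axes, with small subunit genes farther out, and the labelled genes near or below 0 are mainly paralogues.

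No single gene of the 84 differed detectably with drying time. At day 3 none of the 84 was called between DR and IR and 1 had an unadjusted p under 0.05, with a background of 0% called and 2.72% at the unadjusted threshold. At day 7 none was called and 0 had an unadjusted p under 0.05 (background 0% and 1.79%). For the interaction none was called and 1 had an unadjusted p under 0.05 (background 0% and 3.01%), all by edgeR. DESeq2 also called 0 of the 84 in each of these 3 comparisons. The values leaned one way at day 7: 80 of the 84 were lower in DR7 than in IR7, with a median of -0.11 against 0.00 over all genes. Scaling by total counts without ribosomal RNA moved the median of all genes up by 0.10 and left 44 of the 84 below 0, so the lean was one of these genes relative to the rest. At day 3, 71 were lower in DR3 (median -0.07 against -0.04 over all genes), but only 5 with total counts and only 31 without the 6 libraries rich in gland genes.

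Rpl3l had the smallest p for drying at both days, and Rps27l followed at day 7. Rps27l ran from 160 to 217 CPM in IR7 and 118 to 189 in DR7, overlapping, with a log2 difference of -0.23 (edgeR adjusted p = 1). Rps16, Rps18 and Rps19 differed between DR7 and IR7 by -0.08, -0.15 and -0.13, each less than its standard error (0.202, 0.161 and 0.172).

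The balance of the 2 subunits differed between the days. Counts of large over small subunit genes were in a ratio of 1.3 to 1.48 in IR3 (median 1.33), 1.27 to 1.44 in DR3 (median 1.37), 1.2 to 1.28 in IR7 (median 1.21), 1.21 to 1.29 in DR7 (median 1.25) and 1.23 in NT. IR3 lay wholly above IR7, while DR3 and DR7 overlapped. The 4 highest ratios, 1.42 to 1.48, belonged to the 4 libraries with the most lipid gland markers. Without the 6 libraries rich in gland genes the day 3 ratios were 1.27 to 1.33. With all genes weighted equally, the mean small minus large level was 0.0314 to 0.226 log2 CPM in IR3 and 0.299 to 0.362 in IR7, with no overlap, and 0.0619 to 0.283 in DR3 and 0.25 to 0.334 in DR7, which overlapped. NT was at 0.303, within the day 7 range. The day 3 range of this difference without the 6 libraries was 0.198 to 0.283.

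NT was closer to day 3 than to day 7 in level. With 1 library it has no replicate and no test. The median log2 ratio of NT over the group mean, with 5 CPM added to both, was -0.03 against IR3, 0.06 against DR3, -0.33 against IR7 and -0.22 against DR7. With total counts without ribosomal RNA as scaling these were -0.15, -0.28, -0.63 and -0.62, and the same medians over all genes were -0.19, -0.33, -0.25 and -0.33. Without the libraries rich in gland genes the ratio of NT was -0.04 against 3 IR3 libraries and -0.11 against 3 DR3 libraries. None of the 84 lay past 2-fold on either side of the replanted mean (background 3.36% of genes higher and 7.81% lower in NT). Rpl3l was the highest in NT (log2 ratio 0.93) and Rpl39l the lowest (-0.68). NT lay below all 24 replanted libraries for 3 genes, among them Rpl17 (313 CPM), and above all for none, against 6.06% and 9.1% of all genes. Tooth markers, red cell markers (3.86% of counts against at most 2.04%) and ribosomal RNA set NT apart from every replanted library as well, and the part of these in its levels was not tested.

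The genes varied together from library to library. QuantSeq reads come from the 3′ end, so a long transcript gives no more counts than a short one. Levels of different genes are set side by side on this scale, within the limit that 14 of the 84 have repeated entries and that copies may share reads. Among the highest means over the 25 libraries were those of the stalk protein Rplp1 (2460 CPM) and of Rpl41, the shortest ribosomal protein (2410 CPM). Within groups the SD of log2 CPM had a median of 0.257 over the 80 genes with a mean of at least 5, against 0.364 over all 1655 genes at or above the lowest mean among them, many of which are lower than most of the 80. When the mean of the 77 standard genes in each library was subtracted, the median SD fell to 0.154. It was smallest in Rpl41 (0.0754) and Rpl23 (0.0809) and largest in Rpl10a (0.465), followed by Rps28 (0.346) and Rpl4 (0.34). Rpl10a, which belongs to the stalk that releases transfer RNA, ran from 98.4 to 369 CPM, and its 2 entries in the files shared the counts almost evenly (52.4% in the one used), so its spread is uncertain.

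The other genes of translation were read from lists of known members. Of the 66 tested mitochondrial ribosome genes, which serve the organelle's own translation, 22 fell from day 3 to day 7 and none rose (edgeR, median -0.36). The share called lower was 33.3%, against 11.8% of all genes. Mrpl51 fell by 1.02 (adjusted p = 0.00423) and Mrps9 by 0.75 (adjusted p = 0.00896). None of the 66 was called without the 6 libraries rich in gland genes, where the median was -0.11. With total-count scaling 5 of the 66 were called lower, and 604 genes in all. In the lists that follow, the background was again 6.94% called higher and 11.8% called lower. Of 17 elongation factors and other genes with terminal oligopyrimidine transcripts, Eif3f alone rose (0.42, adjusted p = 0.00794), and Eef1a1, the elongation factor that delivers transfer RNA, differed by 0.10 (adjusted p = 0.52). Of 34 ribosome assembly factors Bop1, Wdr75 and Riok2 fell (-0.52, -0.53 and -0.57), and of 22 initiation factors Eif2s2 and Eif5b fell (-0.41 and -0.30). Of 14 tested genes of growth signalling to the ribosome, the kinase gene Rps6kb2 rose (0.45), and Eif4ebp1 and Eif4ebp2, which code for repressors of cap-dependent translation, fell (-0.96 and -0.93). The shares called lower were 8.82% of the assembly factors, 9.09% of the initiation factors and 14.3% of the growth signalling genes. The shares called higher were 5.88% of the list with the elongation factors and 7.14% of the growth signalling genes. None of these 4 lists had a call without the 6 libraries rich in gland genes.

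Some ribosomal proteins carry names outside the rule. Fau, the fusion gene of Rps30, differed by 0.00 between the days (edgeR adjusted p = 0.985), and Gnb2l1, which codes for the scaffold Rack1 of the small subunit, by 0.28 (adjusted p = 0.0842). Neither passed.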

How the data were processed

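Each deposited file gives raw counts for the gene symbols of 1 library, made by the authors from Lexogen QuantSeq libraries of 500 ng of Trizol RNA, per the labels' protocols. Bowtie2, edgeR, mm10 and rn6 are named in the submitters' processing notes without versions or roles, and the sources used here do not give the counting tool, its treatment of multiply mapped reads or the strand setting. Ribosomal proteins have many processed pseudogenes and near-identical copies, so their levels depend on those settings. In the files 14 of the 84 genes had repeated entries, 34 in all, and the entry with the highest total was kept.

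The 24 replanted libraries entered 1 edgeR 4.0.16 quasi-likelihood model in R 4.3.3 (TMM scaling, filterByExpr, robust, 4 group means, 20 residual degrees of freedom), with p-values adjusted over 11492 genes by Benjamini and Hochberg. A gene was called at an adjusted p under 0.05, and standard errors come from the same fit. Contrasts were DR against IR at each day, day 7 against day 3 in IR, in DR and averaged over both, and the interaction. Levels are CPM with TMM scaling over all 25 libraries, and log2 CPM has a prior count of 2. Named genes were the 6 with the largest change among those called in each direction, or the 2 with the smallest p where none was called, with further genes named for their role. A few genes enter the counts and medians but are not reported here by name. Alternatives were RLE and total-count scaling, no filter, DESeq2 1.42.0, limma 3.58.1 voom with and without quality weights, only the compared groups, a replicate block, repeated entries summed (chosen after seeing the data) and leaving out libraries. The edgeR step was tested on simulated counts. The genes and lists were chosen with earlier results of these data known. Replicate numbers were checked for pairing. In IR7 and DR7 the deviations of same-numbered libraries correlated at 0.214 to 0.72 in all 6 pairs, and in IR3 and DR3 at -0.415 to 0.214. Across the days they correlated at -0.293 to 0.337 in IR and at -0.493 to -0.0601 in DR. By these correlations alone the numbers, taken from the titles, may pair libraries at day 7. No pairing was seen at day 3 or across the days.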

Additional observations from a re-analysis of the deposited data

Results flagged for a closer look

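Among 56 group values examined for a library far from the rest of its 6, 10 stood apart. Chance would flag about 1 in 20 only for independent, normally distributed values. Most of these were CPM without a log scale, some near 0, and Rpl10a and Rps28 are among the most variable genes. The 10 can therefore not be set against that rate. The ratio of large to small subunit counts was 1.48 in IR3 replicate 6, against 1.35 in the next library. Rpl39 was 632 CPM in IR3 replicate 1 (next 344), and Rpl3l was 9.76 CPM in the same library (next 2.58). Rpl39l was 103 CPM in IR3 replicate 5 (next 36.9), 61.5 in IR7 replicate 6 (next 13.1) and 43.5 in DR7 replicate 6 (next 19). Rpl10a was 293 CPM in DR3 replicate 6 (next 178) and Rps27 was 1440 CPM in DR7 replicate 5 (next 1140). Rps4y2 was 6.87 CPM in IR7 replicate 1 (next 2.88) and 9.17 in DR7 replicate 1 (next 2.76). Outside the rule, the pseudogene entry Rps4x-ps1 averaged 0.736 CPM in the replanted libraries and 0.118 in NT.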

How the results depend on the processing

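The count of ribosomal protein genes called from day 3 to day 7 with IR and DR averaged was 32. It was 66 by limma-voom with quality weights (65 higher and 1 lower), 0 without the 6 day 3 libraries rich in gland genes, and 18 to 41 when 1 library was left out. In IR alone it was 9 by DESeq2, 58 by limma-voom with quality weights and 0 to 7 with 1 library left out, and in DR alone 12, 44 and 0 to 2. The drying and interaction counts were 0 in every alternative run. The cause of these differences was not tested, other than that leaving out libraries lowers their number. With the replicate block the averaged count was 15, and IR7 against DR7, where the numbers may pair the libraries, stayed at 0. Day 7 deposited names run 1 number above the titles used here, which leaves the IR7 and DR7 pairs as they are but makes the link of day 3 to day 7 numbers in that block uncertain. With the title numbers, the deviations showed no such link across the days either.

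Leaving out 1 library gave medians of the 84 genes of 0.241 to 0.315 for the averaged time change, 0.261 to 0.354 in IR, 0.235 to 0.354 in DR, -0.14 to -0.0119 for drying at day 3, -0.151 to -0.0616 at day 7 and -0.079 to 0.0515 for the interaction, and mean large to small ratios of 1.32 to 1.36 in IR3, 1.34 to 1.38 in DR3, 1.21 to 1.23 in IR7 and 1.24 to 1.26 in DR7. Scaling by total counts without ribosomal RNA moved the NT median from -0.125 to -0.433 and the averaged time median of all genes up by 0.12. The share of calls over all genes that were higher was 37%, and 48.1% with that scaling, 64.8% by limma-voom, 50.8% with quality weights and 76.5% without the 6 libraries.

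Over all genes the averaged comparison called 2156, 1164 with total counts, 5790 by limma-voom with quality weights, 1197 with the replicate block and 51 without the 6 libraries. In IR 16 genes became 748 by DESeq2, 4493 with quality weights and 9 by limma-voom, and in DR 1 became 1064, 3928 and 704 with only DR3 and DR7 fitted. Quality weights also gave 1533 for drying at day 3 and 771 for the interaction, and DESeq2 gave 3 at day 7 and 11 for the interaction. For the genes named singly, 219 of the comparisons by setting kept their direction and side of the threshold, 21 newly passed and 20 no longer passed. The 219 include genes called in neither run. These numbers do not cover the runs with 1 library left out, where 615 kept them, 13 newly passed and 44 no longer passed.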
